A study of Arabidopsis thaliana with 53 samples.

Results

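Leaf transcriptomes of 3 control lines of Arabidopsis thaliana were compared, line C13 against lines C23 and C4. The 3 C13 plants (C13_15, C13_2 and C13_5) and the 6 others (C23_28, C23_30 and C23_34 of line C23, and C4_8_4, C4_8_6 and C4_8_7 of line C4) are the 9 DMSO plants among the 53 sequenced plants, and they were chosen by the library names. The founders of each line had been grown as seedlings on medium with DMSO, the solvent of etoposide, and were selfed, so the 9 plants carry no engineered allele. They share the solvent, long days in a growth chamber, harvest of mature leaves at 32 days, and a sequencing lane. The other 44 plants descend from founders given 160 µM etoposide, an inhibitor of topoisomerase II, and were used here only to place the C13 values. The generation of the DMSO plants is M2 in the labels and M3 in the methods, and the plant list puts C4 a generation after C13 and C23, so that line and generation cannot be told apart for C4. A line name was read as descent from 1 treated founder. The p-values below from the fit by line measure the spread between plants of a line. Where C23 and C4 are pooled as 1 group, the spread also takes in the difference between these lines. The exact permutation test takes no account of line. Inherited differences and growing conditions that a line's plants shared cannot be told apart.

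Leaves adjust their transcripts to mineral supply, day length and growth. When phosphate, sulfate or iron runs short, dedicated transcription factors turn on transporters, phosphatases, lipid-exchange enzymes and reductases, and these genes are widely read as gauges of nutrient state. The circadian clock is a set of transcription factors that repress and activate one another through the day, and its genes change strongly with the hour of sampling. Expansins, xyloglucan endotransglucosylases and auxin genes accompany the expansion of leaf cells.

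The 9 libraries held between 40099334 and 116654237 estimated counts with a median of 45137676, and C23_30 was the deepest by far. It had 18617 genes with a count, against 20152 to 20783 in the 8 other plants. The summed level of 24 nuclear photosynthesis genes was 52311 to 85016 CPM (counts scaled to a common library size) in C13 plants and 43632 to 81677 CPM in C23 and C4 plants, and such transcripts define leaf tissue. Organelle genes took 0.57 to 0.769% of the counts in C13 plants and 0.454 to 0.837% in the others, a difference of 0.0332 percentage points (two-sided exact permutation test, p = 0.762, where the smallest possible p is 0.0238). Plant C13_2 exceeded all 8 other plants by more than 1 on the log2(CPM + 1) scale at 242 genes and lay as far below them at 34, against 4 and 0 genes in C13_15 and 5 and 16 in C13_5. Among the comparison plants, C4_8_7 exceeded the others at 281 genes and C4_8_6 at 104, and the tapetum and pollen markers summed to 225 CPM in C4_8_7 but to at most 9.47 CPM in each of the other 8 plants. The 10 genes that set C4_8_7 apart most included the pectin methylesterase genes VGD1 and VGDH1 of the pollen tube, with VGD1 at 214 CPM in that plant and at most 0.391 CPM elsewhere. Floral organ markers summed to 23.7 to 35 CPM in C13 and 32.3 to 52.1 CPM in the other plants, while seed and root markers summed to at most 2.82 and 1.83 CPM, with 9 of 13 and 5 of 10 at 0 in all 9 plants. The study removed 5 outlier libraries from its own tests without naming them, and all 9 are kept here, and calls lost without C13_2 are named beside each group of genes.

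The C13 plants lay together at 1 end of the main axis of variation but apart on the next. The main axis of variation over the 19141 genes tested, with 49.1% of the variance, placed the C13 plants at 43.9 to 55.1, the C23 plants at -46.6 to -40.2 and the C4 plants at -22, -20.4 and 22.9. The plant at 22.9 was C4_8_4, whose Spearman correlation over these genes was 0.979 with C13_15 and 0.972 and 0.973 with the other C4 plants. Within C13, C13_15 and C13_5 correlated at 0.993, while C13_2 correlated with them at 0.958 and 0.966, less than C4_8_4 did (0.979 and 0.975). These coefficients are over genes, which are not independent, and only describe the libraries.

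**Figure D1:**
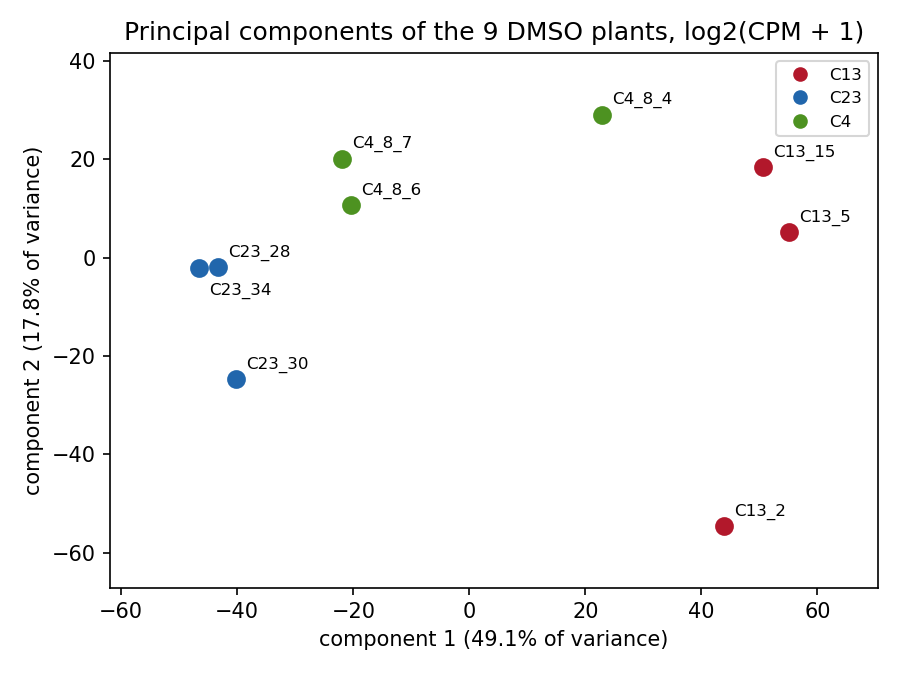
Principal components of the 9 DMSO plants from log2(CPM + 1) of the 19141 genes tested, with each point a plant coloured by line (C13, C23, C4). Component 1 (49.1% of the variance) separates C13 at 43.9 to 55.1 from C23 at -46.6 to -40.2, with C4_8_4 at 22.9, and component 2 (17.8%) sets C13_2 at -54.5 apart.

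Against the mean of C23 and C4, 794 of the 19141 genes were called in C13 (4.15%), of which 317 were higher (1.66%) and 477 lower (2.49%). A gene was called when edgeR's quasi-likelihood test gave a Benjamini-Hochberg adjusted p below 0.01 and the absolute log2 fold change was above 1. The median fold change of the called genes was 1.57 on the log2 scale among the higher and -1.53 among the lower, and the median of all tested genes was 0.013. CPM values did not overlap between the 3 C13 plants and the 6 others at 708 of the 794 called genes, or 89.2%, whereas over all tested genes the values were without overlap at 20.8%. The calls were made on these same values, so a high share among called genes follows from the selection and is no separate support. The called genes were spread over the genome, with 3.68 to 4.47% of the tested genes called on each of the 5 chromosomes, and 0 of 87 tested organelle genes were called.

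The number of calls rested on single plants to a large degree. It was 757 without C13_2 (3.97% of 19084 genes tested), of which 344 were higher and 413 lower, and 533 of the 794 genes were called in both fits. Without C13_2, 793 of the 794 kept their direction and the remaining one, AT1G19530, was no longer tested. The count was 141 without C13_5, 446 without C13_15, 389 without C23_28, 408 without C23_34, 405 without C4_8_6 and 379 without C4_8_7, but 665 without C23_30 and 1178 without C4_8_4. Of 75 called genes that the naming rule selected, 8 were called under all alternatives tried (NIA1, PAP17, MYBL2, LSU2, ABF3, ELF4, RVE2 and AT5G64170, also known as LNK1), and 62 were lost without C13_5.

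**Figure D2:**
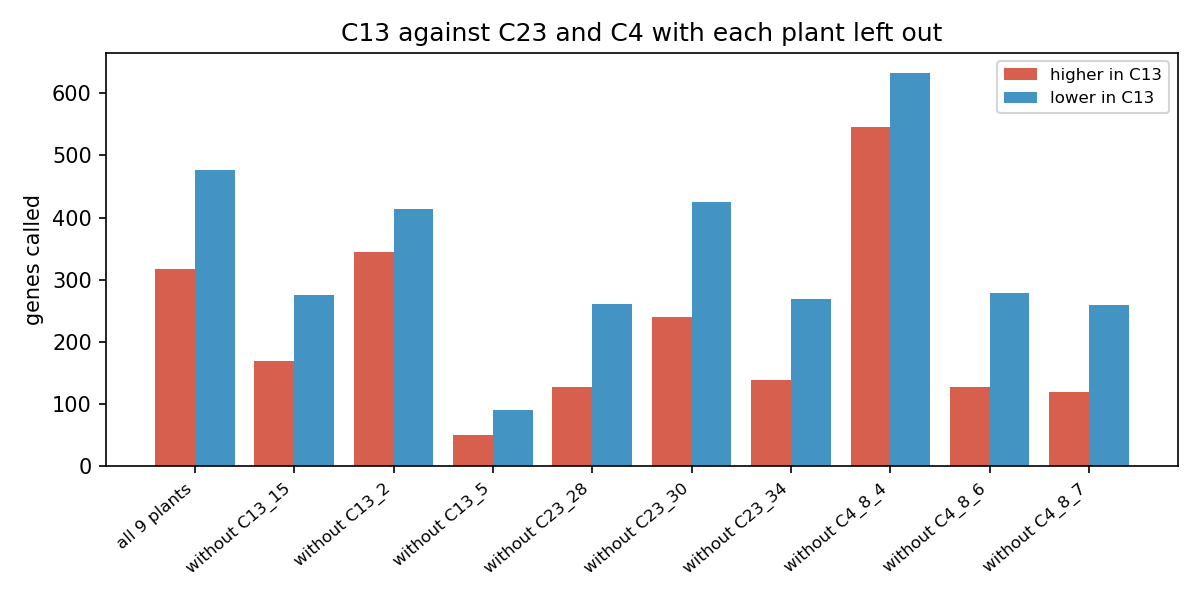
Number of genes called higher (left bar) and lower (right bar) in C13 than in C23 and C4, with all 9 DMSO plants and with each plant left out. Without C13_5 the counts are 50 higher and 91 lower, and without C4_8_4 they are 545 and 633.

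The 3 lines were not equally far apart. C13 differed from C23 at 1030 genes (5.38%), 463 higher and 567 lower, and from C4 at 187 genes (0.977%), 25 higher and 162 lower. C23 and C4 differed at 20 genes (0.104%), 1 higher and 19 lower in C23, with 2396 genes at an unadjusted p below 0.05. In 146 genes C13 was called against both other lines in the same direction (0.763%), 18 of them higher and 128 lower, and 0 of these 146 were called between C23 and C4. The mean of C4 lay between those of C13 and C23 at 86.6% of the 794 called genes, against 52.2% of all tested genes. C4_8_4 was the nearest of the 6 comparison plants to the C13 mean at 587 of the 794, or 73.9%, and each other plant at 27 to 56 genes. The 794 genes were selected on the values of these same plants, which favours C13 at 1 end. Both shares are therefore descriptions, and 52.2% is no baseline for them. The contrasts with C23 and with C4 share the C13 plants and are therefore not independent.

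Among the genes that rose, NIA1, which encodes the nitrate reductase that converts nitrate to nitrite, was the most abundant of the 12 with the largest non-overlapping rise. NIA1 had 344, 901 and 355 CPM in C13_15, C13_2 and C13_5, against 28.8, 29.6 and 20.3 CPM in the C23 plants and 31.9, 30.4 and 48.3 CPM in the C4 plants. Every C13 plant exceeded the highest of the other plants several times over, and the highest was C13_2. The log2 fold change was 4.1 ± 0.32 (standard error from the F statistic; adjusted p = 0.000327 by edgeR's quasi-likelihood test) and 3.49 without C13_2 (adjusted p = 0.000188 by the same test).

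The rise also took in genes of cell expansion and auxin. XTH25, a xyloglucan endotransglucosylase that cuts and rejoins wall polysaccharide, had 79, 37.5 and 96.2 CPM in C13 plants, against 0.938 to 1.99 CPM in C23 and 12.6 to 32.3 CPM in C4 plants (log2 fold change 3.65 ± 0.36, adjusted p = 0.000814 by the edgeR test). The fold against C23 was 5.64 and that against C4 was 1.65 on the log2 scale, and only that against C23 passed the test. With C23 and C4 pooled as 1 group XTH25 was not called (log2 fold change 2.57, adjusted p = 0.0999 by the same test). IQD19, a calmodulin-binding IQ-domain protein gene, had 8.97, 5.45 and 8.32 CPM in C13 and 0.139 to 1.33 CPM in the 6 other plants. AT4G34770, a member of the SAUR-like auxin-responsive family, had 3.41, 1.18 and 1.31 CPM in C13 and at most 0.602 CPM in the others. YUC8, a flavin monooxygenase of auxin synthesis, had 1.79, 0.982 and 0.475 CPM in C13 and 0.0215 to 0.247 CPM in the others. These are low levels, and the call on YUC8 was lost without C13_2 (adjusted p = 0.0125 by the same test).

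The other genes with the largest rise without overlap were mostly read at a few CPM. Called genes with overlapping values were left out of the 12. Among them were AT2G07675, EXO and BZIP61, with log2 fold changes of 5.21, 5.13 and 4.89. AT3G12710, of the DNA glycosylase superfamily, had 7.57, 5.11 and 3.94 CPM in C13, was at 0 in the 3 C23 plants, and had 3.42, 0.57 and 0.706 CPM in the C4 plants. Taken over each line, C13 was at least 411-fold above C23, from a floor of 3 counts over the line, and C4_8_4 alone came near the C13 values. AT5G50335 and AT4G04745, for which the annotation gives no function, had 1.91 to 7.68 and 3.56 to 4.9 CPM in C13, against 0 to 1.62 and 0.0494 to 0.946 CPM in the others. The trehalose-6-phosphate phosphatase gene TPPB and PRA1.F1, a prenylated Rab acceptor, had 0.614 to 0.871 and 1.23 to 2.7 CPM in C13 and at most 0.452 and 0.86 CPM in the others. AT1G19530 and AT1G11125 had 0.95 to 2.82 and 0.566 to 0.835 CPM in C13 and at most 0.11 and 0.237 CPM elsewhere. Of the 12, only NIA1 was called against C4 alone, and YUC8 and AT1G19530 were called against neither line alone. A gene of the NPH3 family of phototropic response, AT1G03010, is not among the 12 but was called against each line. It had 5.08, 3.02 and 4.21 CPM in C13 and 0.317 to 0.848 CPM in the other 6 plants (log2 fold change 2.77 ± 0.32, adjusted p = 0.00125 by the edgeR test). Of the 12 largest rises 9 were not called with C23 and C4 pooled, and those called were NIA1, IQD19 and AT1G19530. AT3G12710 and AT5G50335 then had log2 fold changes of 2.83 and 2.71 (adjusted p = 0.197 and 0.159 by the edgeR test). Without C13_2 the calls on AT1G11125 (adjusted p = 0.0216) and TPPB (adjusted p = 0.0147) were lost as well as that on YUC8, and AT1G19530 was not tested.

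**Figure D3:**
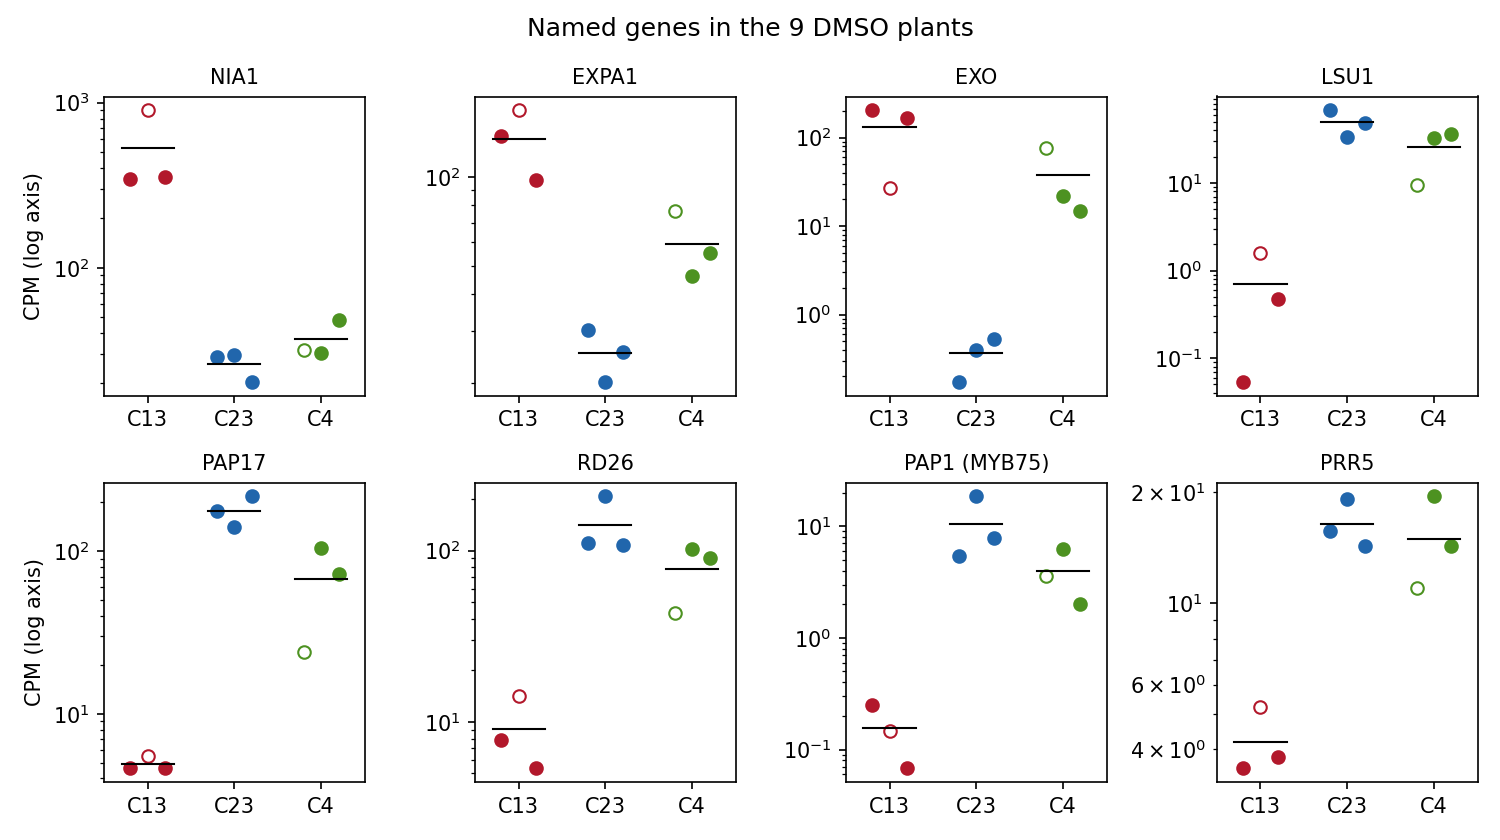
CPM on a log axis of 8 named genes in the 9 DMSO plants, grouped by line, where each point is a plant, the bar is the mean of the line, and open points are C13_2 and C4_8_4. NIA1, EXPA1 and EXO are high in C13 (NIA1 344 to 901 CPM), while LSU1, PAP17, RD26, PAP1 and PRR5 are low, and C4_8_4 lies nearest to C13 among the C4 plants in all but NIA1 and PAP1.

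The 12 largest falls, also taken from called genes without overlap, came from several groups. LSU1, LSU3 and ATSDI1 (SDI1), induced when sulfur is short, were among the 12 with the largest fall, as were PAP17 and SRG3 of the phosphate response. The others were NAC3 (AT3G15500, also known as ANAC055), the MYB genes PAP1 and MYBL2 of anthocyanin synthesis, the cold regulator CBF1, AT2G15020, AT3G28270 and AT1G73325, a Kunitz-type protease inhibitor gene. NAC3 (AT3G15500) had 0.142, 0.147 and 0 CPM in C13, 9.18, 7.52 and 9.67 CPM in C23, and 0.28, 6.86 and 5.51 CPM in C4, a log2 fold change of -5.92 ± 1.11. Its value in C4_8_4 was close to those of C13, and it was called with all 9 plants (adjusted p = 0.00774 by the edgeR test) but not without C13_2 (adjusted p = 0.0193). AT2G15020 had 0.43 to 0.785 CPM in C13 and 3.96 to 27.2 CPM in the others, AT3G28270 had 3.43 to 7.93 and 23.8 to 141 CPM, and AT1G73325 had 0.267 to 0.792 and 3.13 to 16 CPM. The call on AT1G73325 was also lost without C13_2 (adjusted p = 0.0187 by the edgeR test), and with C23 and C4 pooled 2 of the 12 falls, NAC3 and SRG3, were not called.

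Of 9 tested genes of sulfur starvation, 7 were called lower in C13 and 0 higher, and all 9 had negative fold changes with a median of -1.75 on the log2 scale. For this list and those below, the shares over all tested genes were 2.49% called lower and 1.66% called higher. LSU1, a small protein of the low-sulfur response, had 0.0533, 1.6 and 0.475 CPM in C13_15, C13_2 and C13_5, against 68, 33.4 and 48.2 CPM in C23 and 9.59, 32.6 and 35.9 CPM in C4. The lowest comparison plant, C4_8_4, still exceeded the highest C13 plant, C13_2, and the log2 fold change was -5.73 ± 0.85 (adjusted p = 0.00331 by the edgeR test). Its relative LSU2 fell to 13.4 to 20.6 CPM in C13, against 56.4 to 97.6 CPM in the others. LSU3, which is not on the list, had 0.656 to 3.71 CPM in C13 and 12.9 to 66.1 CPM in the others. ATSDI1, a TPR protein that represses glucosinolate synthesis under sulfur shortage, had 0.693, 2.5 and 1.22 CPM in C13 and 8.37 to 36.8 CPM in the others. The 3 APS reductase genes, whose enzymes reduce activated sulfate, fell as well. APR1 had 90.8 to 127 CPM in C13 and 192 to 446 CPM in the others, APR2 100 to 135 and 164 to 412 CPM, and APR3 44.1 to 91.3 and 158 to 461 CPM. SHM7, a serine hydroxymethyltransferase gene, had 27.8 to 46.6 CPM in C13 and 57.7 to 132 CPM in the others. Against C23 alone 7 of the 9 were called lower, and against C4 alone 2 were. The count was 6 without C13_2, where APR2 was lost, 5 or more without any other plant but C13_5, and 1 without C13_5.

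Of 19 tested phosphate starvation genes, 7 were called lower and 0 higher, with 17 negative fold changes and a median of -1.41 on the log2 scale. Most of the difference was from C23, with 9 called lower against C23 alone and 1 against C4 alone (medians -1.84 and -0.85). PAP17, a purple acid phosphatase induced when phosphate is scarce, had 4.62, 5.52 and 4.66 CPM in C13 plants, against 176, 141 and 218 CPM in C23 plants and 24.1, 105 and 72.5 CPM in C4 plants. The C13 plants were close to one another and all far below the others, with a log2 fold change of -4.47 ± 0.47 (adjusted p = 0.000945 by the edgeR test). SPX1, whose protein holds back the phosphate regulator PHR1 when phosphate is ample, had 3.55, 4.15 and 3.21 CPM in C13, 66.1, 62.5 and 87.7 CPM in C23 and 7.79, 30.6 and 29.2 CPM in C4. The related SPX2 had 12.4 to 15.3 CPM in C13 and 17.9 to 45 CPM in the others. The lipid genes MGDC (MGD3, galactolipid synthesis) and SQD1 (sulfolipid synthesis) had 0.675 to 0.86 and 89 to 112 CPM in C13, against 1.1 to 25.9 and 115 to 357 CPM in the others. PS2, a phosphatase gene, had 1.08 to 1.4 CPM in C13 and 2.54 to 26.1 CPM in the others. PHO2, which fell to 143 to 183 CPM in C13, against 193 to 631 CPM in the others, acts the other way, since its E2 ubiquitin-conjugating enzyme removes phosphate transporters. SRG3, annotated as senescence-related and known as a glycerophosphodiester phosphodiesterase of the phosphate response, had 3.31, 4.05 and 2.24 CPM in C13, 200, 103 and 259 CPM in C23 and 6.88, 59.2 and 55 CPM in C4. The list's count was 4 without C13_2, C23_28, C4_8_6 or C4_8_7, 3 without C13_15 or C23_34, 1 without C13_5 and 9 without C4_8_4. The calls lost without C13_2 were those on PS2, MGDC and SQD1, and with C23 and C4 pooled 2 of the 7 calls were left, PAP17 and SPX1.

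Promoters of these genes were searched for P1BS (GNATATNC), the site that PHR1 binds, in the 500 bases before each gene's start in the RefSeq annotation of TAIR10.1, on both strands. It was present in 1 of the 7 called list members and in 10.7% of the 19053 promoters of tested nuclear genes. PS2 was that list member, with 1 match. SRG3, among the 12 largest falls but not on the list, held 4. The match nearest to the start is shown for each, since of the called phosphate genes described here these are the ones with the site. The windows of 30 bases read on the gene's strand, with P1BS in capitals, are chr3:350055-350084 (minus strand) for SRG3 and chr1:27466547-27466576 (minus strand) for PS2. The match ends 55 bases before the start of SRG3 and 209 bases before that of PS2.
SRG3: ggcgatccaaaGAATATTCcaagatcccat
PS2: tttgggtaacgGAATATTCttctcttattc
A match describes these letters and is no measure of binding.

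Of 13 tested iron genes, 3 were called lower in C13, and these were the 3 basic helix-loop-helix genes BHLH100, bHLH38 and BHLH101, which activate iron uptake when iron is short. BHLH100 had 7.93, 8.52 and 1.45 CPM in C13, 27.6, 21.5 and 52.5 CPM in C23 and 70.7, 95.8 and 171 CPM in C4, so that C4 was the highest line. bHLH38 had 0.905 to 4.52 CPM in C13 and 16.2 to 72.7 CPM in the others, and BHLH101 had 0.158 to 2.7 and 11.9 to 42.8 CPM. The median of the list was -1.36 on the log2 scale. Against C4 alone 2 were called and against C23 alone 0. The list had 2 calls without C13_2, where BHLH100 was lost, 0 with C23 and C4 pooled, 3 without C4_8_4, 1 without C23_30 and 0 without each of the other 6 plants, so that its calls depended on most single plants.

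Some genes for the synthesis of sulfur-containing defence compounds and of pigments were also called lower, and the compounds were not measured. All 12 tested genes of aliphatic glucosinolate synthesis had negative fold changes, with a median of -0.97, and 4 were called lower. The calls lower numbered 5 against C23 alone and 0 against C4 alone. CYP79F1, which catalyses the entry step from chain-elongated methionine, had 241, 184 and 213 CPM in C13 and 350 to 834 CPM in the others, and its relative CYP79F2 had 5.07 to 7.29 and 11.2 to 34.1 CPM. SOT18, the sulfotransferase of the last core step, had 54.6 to 67.7 CPM in C13 and 84.5 to 190 CPM in the others, and the plastid transporter gene BAT5 had 24 to 29.1 and 31.7 to 126 CPM. IMS2 (MAM3), a methylthioalkylmalate synthase of chain elongation, had a log2 fold change of -3.36 and was not called (adjusted p = 0.035 by the edgeR test), with 5.35, 18.7 and 2.04 CPM in C13 and 7.79 CPM in C4_8_4 beside 56.3 to 139 CPM in the other 5 plants. The list's count was 2 without C13_2 (CYP79F2 and BAT5 were lost), C23_28, C23_34 or C4_8_6, 2 with C23 and C4 pooled, 1 without C13_15, 0 without C13_5 and 7 without C4_8_4. Of 16 anthocyanin and flavonoid genes, PAP1 and F3H were called lower, beside 2.49% of all tested genes, and the median was -0.22. PAP1 (MYB75), the MYB activator of anthocyanin synthesis, had 0.249, 0.147 and 0.0679 CPM in C13, 5.36, 18.5 and 7.76 CPM in C23 and 3.55, 6.21 and 2.03 CPM in C4 (log2 fold change -5.32 ± 0.68, adjusted p = 0.00166 by the edgeR test). F3H, the flavanone 3-hydroxylase gene, had 1.12 to 2.09 CPM in C13 and 4.05 to 9.7 CPM in the others. MYBL2, a MYB repressor of the same pathway, also fell, with 2.4, 2.48 and 2.04 CPM in C13, 58.4, 36.4 and 45.4 CPM in C23 and 18.6, 55.8 and 35 CPM in C4 (log2 fold change -4.16 ± 0.37, adjusted p = 0.00059 by the same test). The count of anthocyanin genes was 1 without C13_15, C23_28 or C23_34 and 0 without C13_5, and it was 2 against C23 alone and 1 against C4 alone.

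Of 23 tested clock genes, 9 were called lower in C13 and 0 higher, with 20 negative fold changes and a median of -1.19 on the log2 scale. Taken by line, 8 were called lower against C23 and 4 against C4. PRR5, a pseudo-response regulator that represses the morning genes, had 3.55, 5.2 and 3.8 CPM in C13, against 15.7, 19.2 and 14.3 CPM in C23 and 11, 19.5 and 14.3 CPM in C4 (log2 fold change -1.90 ± 0.23, adjusted p = 0.00143 by the edgeR test). ELF4, a part of the evening complex, had 44.1, 41.8 and 42.7 CPM in C13, which was nearly the same in all 3 plants, and 74.7 to 131 CPM in the others. GI and FKF1, which act together in day-length sensing, had at most 9.89 and 19.8 CPM in C13, against 17.9 to 38.2 and 27.9 to 79.8 CPM in the others. The MYB-like genes RVE1, RVE2 and RVE8 had 0.633 to 1.35, 22 to 38.1 and 0.835 to 1.91 CPM in C13, and 2.25 to 7.17, 98.9 to 184 and 3.4 to 6.54 CPM in the others. AT5G64170 (LNK1), a coactivator of RVE proteins, had 4 to 5.42 CPM in C13 and 14.5 to 26.9 CPM in the others, and CDF1, a Dof repressor of flowering genes, had 2.68 to 4.83 and 8.77 to 22.2 CPM. CPM values of 17 of the 23 genes did not overlap between C13 and the other plants, against 20.8% of all tested genes. The hour of sampling is not given in the sources used here. The count of clock calls was 7 without C13_2, where FKF1 and CDF1 were lost, 6 without C23_34, 5 without C13_15, C4_8_6 or C4_8_7, and 3 without C13_5.

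The evening element (AAAATATCT), the site through which clock MYB-like proteins act, was found in 2 of the 9 called clock promoters, against 4.53% of all tested promoters. The windows nearest to the gene's start in PRR5 and FKF1 are shown because they are the 2 genes with the element, which in each reads on the opposite strand (capitals). They are chr5:8358714-8358743 (minus strand) in PRR5 and chr1:25508443-25508472 (plus strand) in FKF1. The match ends 178 bases before the start of PRR5 and 177 bases before that of FKF1.
PRR5: gattttttctAGATATTTTcttttctccac
FKF1: tgagtaggctAGATATTTTctcggaatatc
Both promoters held 2 matches.

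The 4 flowering-time genes called lower, of 26 tested, all encode AP2-domain repressors of flowering. RAV2 (TEM2) had 16.7, 33.1 and 14.2 CPM in C13 and 52.1 to 111 CPM in the others, and SNZ had 9 to 16.1 and 31.5 to 61.2 CPM. RAP2.7 (TOE1) had 39.5 to 58 CPM in C13 and 60.7 to 143 CPM in the others, and TOE2 had 6.86 to 8.03 and 13.9 to 19.6 CPM. FLC, a MADS-box repressor, was not called (adjusted p = 0.118 by the edgeR test), with 0.267, 0 and 0.271 CPM in C13, 0, 0.24 and 2 CPM in C23 and 3.83, 0.987 and 14.8 CPM in C4. The median of the list was -0.2, and its count was 5 without C13_2, 2 without C23_28, C4_8_6 or C4_8_7, 1 without C13_15 and 0 without C13_5. With C23 alone as the comparison 4 were called lower, and with C4 alone 2.

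The abscisic acid and drought, cold, heat and elicitor lists each had 2 or 4 genes called lower. Each was a larger share than the 2.49% of all tested genes called lower. Of 19 abscisic acid and drought genes, 4 were called lower and 0 higher, with a median of -0.8 on the log2 scale. RD26, a NAC transcription factor of the dehydration response, had 7.8, 14.2 and 5.36 CPM in C13, 110, 207 and 108 CPM in C23 and 42.9, 102 and 90.2 CPM in C4 (log2 fold change -3.53 ± 0.45, adjusted p = 0.00165 by the edgeR test). ABF3, a bZIP activator of abscisic acid response, had 19.3 to 23.3 CPM in C13 and 38.1 to 84.5 CPM in the others, HB-12 had 2.97 to 3.98 and 4.75 to 19.8 CPM, and HAB1 had 29.4 to 32.1 and 40.4 to 91.2 CPM. HAB1 encodes a phosphatase that switches abscisic acid signalling off, so that activators and a repressor fell together. CBF1 and DREB1A (CBF3), adjacent genes for activators of the cold response, had 0.0452 to 0.27 and 0.195 to 0.344 CPM in C13 and 1.42 to 8.35 and 1.03 to 8.84 CPM in the others, and were the 2 called of 15 cold and touch genes. The neighbouring CBF2 had a log2 fold change of -4.52 and was not called (adjusted p = 0.0242 by the edgeR test). Of 13 heat shock genes, HSP70 and MBF1C, a chaperone and a coactivator gene, were called lower, with 3.13, 9.38 and 4.21 and 4.98, 8.42 and 5.41 CPM in C13 against 21.6 to 101 and 13.6 to 28.2 CPM in the others. Of 28 chitin and elicitor genes, the ethylene response factor genes ERF-1 and ERF104 were called lower, with 9.52 to 20.3 and 22.8 to 36.2 CPM in C13 against 34.4 to 58.1 and 48.5 to 170 CPM in the others. Without C13_2 the call on HB-12 was lost (adjusted p = 0.0149 by the edgeR test), and with C23 and C4 pooled the abscisic acid and drought list had 2 calls and the chitin list 1. Without C13_5 the calls were 1 for abscisic acid and drought and 0 for cold and touch, heat shock, and chitin. Without C13_15 they were 3, 1, 0 and 1. The heat shock count was also 0 without C23_28, C4_8_6 or C4_8_7 and 1 without C23_34, and without C13_2 the heat shock and the chitin lists had 4 calls each. Against C23 alone 5 abscisic acid and drought, 2 cold and touch, 2 heat shock and 2 chitin genes were called lower. In the contrast with C4 alone these counts were 2, 0, 0 and 2. Another 2 cold and touch genes were called higher against C23.

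Growth genes lay on the higher side. All 15 tested genes of cell wall expansion had positive fold changes in C13 against the mean of C23 and C4, with a median of 1.16 on the log2 scale, and 2 were called. A positive value here need not hold against both lines. TCH4, among the 15, had a log2 fold change of 3.88 against C23 and -1.67 against C4. The share called higher over all tested genes was 1.66%. EXPA1, an expansin that loosens walls, had 137, 168 and 97.2 CPM in C13, against at most 30.3 CPM in C23 and 76.8, 46.2 and 55.3 CPM in C4 (log2 fold change 1.79 ± 0.21, adjusted p = 0.00132 by the edgeR test). EXO, an EXORDIUM gene of brassinosteroid-promoted growth, had 204, 27.1 and 164 CPM in C13, 0.173, 0.394 and 0.526 CPM in C23, and 75.3, 22.1 and 14.9 CPM in C4. The EXO values of C13 and C4 overlapped. Its log2 fold change was 5.13 ± 0.68 (adjusted p = 0.00207 by the edgeR test), and it was called against C23 (log2 fold change 8.45, adjusted p = 0.00147) but not against C4 (log2 fold change 1.81, adjusted p = 0.177, edgeR in each case). Against C23 alone 7 of the 15 were called and against C4 alone 0. The count was 1 without C13_5 and 3 without C4_8_4, and it was 2 without each other plant. With C23 and C4 pooled it was 0, with log2 fold changes of 1.66 for EXPA1 (adjusted p = 0.0188) and 2.8 for EXO (adjusted p = 0.206, edgeR in each case). All 28 tested cell division genes also had positive fold changes with a median of 0.98, but 0 passed with the 9 plants, against 3 in the contrast with C23 and 7 without C4_8_4. PCNA1, the sliding clamp of DNA replication, had 14.7, 10.2 and 13.3 CPM in C13 and 1.54 to 11.5 CPM in the others (log2 fold change 1.44, adjusted p = 0.0142 by the edgeR test). Over all tested genes 51.2% of the fold changes were positive.

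The 14 tested auxin genes had 13 positive fold changes and a median of 0.73, with 3 called higher and 1 lower. Over all tested genes the shares were 1.66% and 2.49%. Auxin genes called higher numbered 2 against C23 alone and 0 against C4 alone. Beside YUC8, IAA19, an Aux/IAA gene that marks auxin response, had 12.3, 8.69 and 8.48 CPM in C13 and 1.22 to 6.17 CPM in the others. IAA1, of the same family as IAA19, was the one that fell, with 4.98 to 6.26 CPM in C13 and 9.43 to 15.7 CPM in the others. The count of higher calls was 0 without C13_15, C13_2, C13_5, C23_34, C4_8_6 or C4_8_7 and 1 without C23_28 or C23_30, and 0 with C23 and C4 pooled. IAA1 was not called without C13_15, C13_5, C23_28 or C4_8_7. The 9 vascular markers likewise all had positive fold changes, with a median of 1.67, 0 were called, and their summed level was 427, 468 and 441 CPM in C13, 367, 290 and 345 CPM in C23, and 439, 415 and 477 CPM in C4. XCP1, a protease of xylem cells, had 13.5, 9.55 and 13.5 CPM in C13 and 0.373 to 7.89 CPM in the others. The part of vein content in the growth genes was not tested, and in whole leaves fewer cells of a type and less RNA per cell cannot be told apart.

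**Figure D4:**
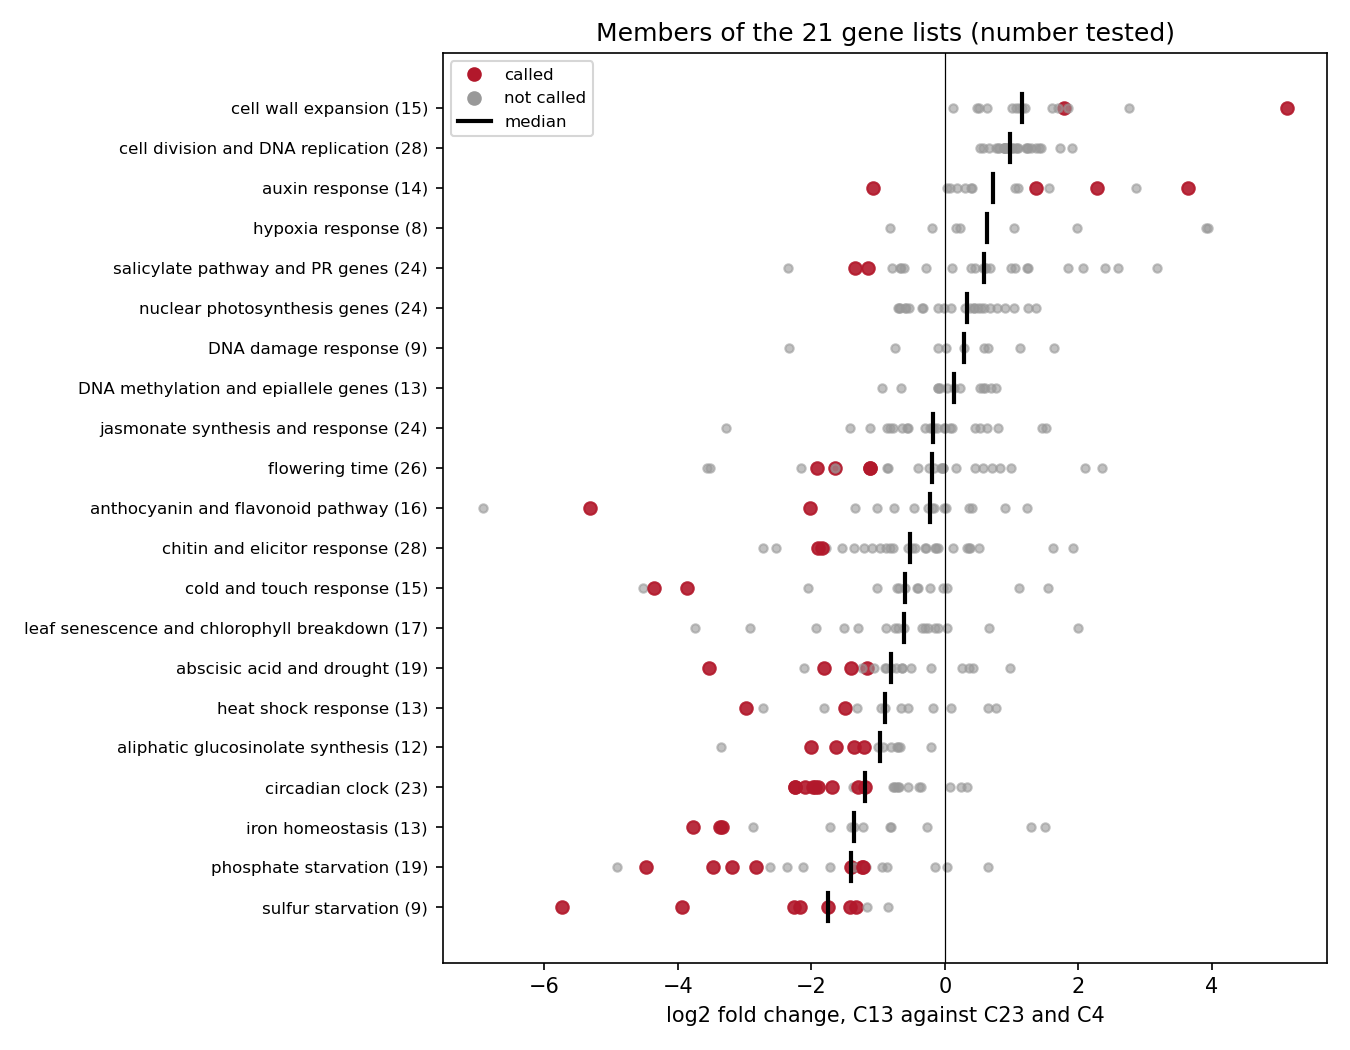
Fitted log2 fold change in C13 against C23 and C4 of each tested member of 21 gene lists, with called genes in red, genes not called in grey, the list median as a black bar and the number tested in brackets. Sulfur starvation (median -1.75), phosphate starvation (-1.41), iron (-1.36) and clock genes (-1.19) lie lowest and cell wall expansion (1.16) highest.

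Defence genes shifted with C13_2. Of 24 salicylate genes, 16 had positive fold changes with a median of 0.59, and the median was 0.17 without C13_2. The 2 that were called, WRKY54 and WRKY70, are regulators that restrain salicylate synthesis, and they were lower in C13. The share called lower over all tested genes was 2.49%. WRKY70 had 143, 143 and 184 CPM in C13 and 256 to 705 CPM in the others, and WRKY54 had 26.6 to 38.3 and 55.5 to 99.4 CPM. PR5, a pathogenesis-related protein gene, had 115, 227 and 116 CPM in C13, 94.4 CPM in C4_8_4 and 14.5 to 23.4 CPM in the other 5 plants, and was not called (adjusted p = 0.0128 by the edgeR test). The lower calls numbered 0 without C13_15 or C13_5 and 1 without C23_28 or with C23 and C4 pooled, and 2 genes were called higher without C4_8_4. Salicylate genes called lower numbered 0 against C23 alone and 2 against C4 alone. DESeq2's Wald test, used as an alternative, called 5 of the 24 higher and 2 lower. Of 24 jasmonate genes 0 were called with a median of -0.18, but 4 were called lower without C13_2, with a median of -0.8. LOX3, a lipoxygenase of jasmonate synthesis, had 322 CPM in C13_2 against 22.3 and 33.3 CPM in its sisters and 28.8 to 87.8 CPM in the other lines, and its log2 fold change was 1.52 with C13_2 and -0.66 without it, not called in either fit.

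The 10 genes by which C13_2 exceeded its nearest neighbour most were led by AT4G21870, of the HSP20-like chaperones, with 87.1 CPM in C13_2 and at most 6.1 CPM in the other plants. CYP94C1, a cytochrome P450 that inactivates jasmonate, had 66.3 CPM against at most 4.61 CPM. The receptor-like genes RLP41, RLP23 and CRK6 had 174, 465 and 921 CPM in C13_2 and at most 23.3, 69.9 and 141 CPM elsewhere. PP2-A5, a phloem protein gene, and ABR1, a DNA-binding protein of the AP2 type, had 42.1 and 46.4 CPM, against at most 4.52 and 5.64 CPM. AT5G62360, AT1G15010 and AT1G15670 had 210, 83.8 and 173 CPM, against at most 28.8, 11.6 and 26.9 CPM. The departures to the low side were smaller, with AT2G45340, a leucine-rich repeat kinase gene, at 3.07 CPM in C13_2 and 13.3 to 23.1 CPM in the others, AT5G21100, an ascorbate oxidase gene, at 11.8 and 41.6 to 76.7 CPM, and CNGC4, a cyclic nucleotide-gated channel gene, at 32.8 and 83.5 to 130 CPM. The remaining 7 of the 10 lowest (AT1G78995, AT1G49010, AT5G62140, UMAMIT46, AT1G29530, AT4G24810 and AT3G63450) had 0.417 to 13.1 CPM in C13_2 and lay 1.29 to 1.42 below the nearest plant on the log2(CPM + 1) scale. These genes were selected for their values in C13_2, so they describe that plant and are no test.

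Other groups gave 0 calls in the edgeR fit with all 9 plants. Of 8 hypoxia genes, 6 had positive fold changes with a median of 0.63, and HB1, a phytoglobin gene, had 10.4, 10.7 and 10.2 CPM in C13 and 0 to 2.86 CPM in the others (log2 fold change 3.91, adjusted p = 0.0109 by the edgeR test). One hypoxia gene was called without each of C23_30, C23_34 and C4_8_4. Of 17 senescence genes, 14 had negative fold changes with a median of -0.62, with 1 called higher without C13_15 and 2 called lower without C4_8_4. The senescence regulator NAC3 (AT3G29035, ORS1) had 1.26, 7.9 and 1.49 CPM in C13 and 1.44 CPM in C4_8_4, against 23.7 to 45.7 CPM in the other 5 plants. Of 24 photosynthesis genes 0 were called with a median of 0.34, and 3 were called higher without C13_2. CAB3, LHCB3 and LHCA4, of the light-harvesting antenna, had 393, 241 and 627 CPM in C13_2, against 1148 to 1185, 489 to 491 and 1043 to 1048 CPM in its sisters, and 194 to 564, 121 to 238 and 320 to 593 CPM in the other lines. The 9 DNA damage response genes had a median of 0.28 and the 13 DNA methylation genes a median of 0.14, with 0 called in each contrast between lines.

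Over the called genes as a whole, the G-box (CACGTG), a site of bZIP and bHLH factors, was present in the 500 bases before the start of 17% of the genes called lower and 8.83% of those called higher, against 10.4% of all tested genes. The other motifs searched on both strands were W-box (TTGACC or TTGACT) with 43.6% of lower, 46.4% of higher and 44.6% of all genes, CRT/DRE (CCGAC) in 113 of 477 lower genes, 64 of 317 higher genes and 23% of all, evening element with 6.5, 2.84 and 4.53%, and heat shock element (GAANNTTC) with 20.5, 18.6 and 18.4%. The GCC box (GCCGCC) was in 3.35, 3.79 and 4.4%, P1BS in 15.7, 12.9 and 10.7%, and the telo box (AAACCCTA) in 2.73, 4.42 and 6.43%. These shares are descriptions with no test. Among the 12 largest falls the G-box was in 2, LSU3 at chr3:18373151-18373180 (minus strand) and NAC3 (AT3G15500) at chr3:5234106-5234135 (plus strand), and among the 12 largest rises also in 2, YUC8 at chr4:14192109-14192138 (plus strand) and AT5G50335 at chr5:20489793-20489822 (minus strand). The windows nearest to the start are shown to compare the bases around the site, which is in capitals.
LSU3: catgatatgtacCACGTGcagtagacagac
NAC3: atcattcacttaCACGTGttttttcttctt
YUC8: ctttttcttcccCACGTGgcttcctctcgt
AT5G50335: atgcatcatttaCACGTGttaaaatacggt
The core is shared by genes that fell (LSU3 and NAC3) and genes that rose (YUC8 and AT5G50335), and YUC8 held 2 matches and the others 1 each.

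In some genes C23 and C4 lay on either side of C13, and the pairs of lines were then more telling than their mean. TCH4, a touch-induced xyloglucan endotransglucosylase, had 45, 20 and 51.9 CPM in C13, 0.987, 3.76 and 3.03 CPM in C23 and 208, 97.3 and 66.6 CPM in C4, so that C13 lay between the others. It was called against C23 (log2 fold change 3.88, adjusted p = 0.00339 by the edgeR test) and not against C4 (log2 fold change -1.67, adjusted p = 0.101). DREB26, an AP2 transcription factor gene, had 9.81, 3.73 and 7.42 CPM in C13, 0.741 to 1.14 CPM in C23 and 35.7 to 50.7 CPM in C4, and C13 was called higher than C23 and lower than C4. AT4G37240 had 6.06 to 16.3 CPM in C13, 0.286 to 0.79 CPM in C23 and 21.1 to 41.7 CPM in C4. The largest rises against C23 were AT3G12710, EXO and BZIP61, a bZIP gene with 73.2, 14.2 and 48.9 CPM in C13, 0 to 0.395 CPM in C23 and 5.77 to 29.4 CPM in C4. The largest falls against C23 were AT3G44510, a hydrolase gene with at most 0.0245 CPM in C13, 2.14 to 5.83 CPM in C23 and 0 to 1.6 CPM in C4, AT4G01390, with 0.0245 to 0.409 CPM in C13, 8.99 to 40.9 CPM in C23 and 0.409 to 14.2 CPM in C4, and NAC3 (AT3G15500). AT2G07675, annotated as ribosomal protein S12, had 2.65, 3.61 and 1.45 CPM in C13 and 1.95, 2 and 2.37 CPM in C23, but 0 in all 3 C4 plants. C13 was at least 114-fold and C23 at least 92.9-fold above C4, from a floor of 3 counts over the line, and this was the 1 gene higher in C23 than in C4. It was called in C13 against C23 and C4 but not with these pooled (log2 fold change 1.28, adjusted p = 0.565), and between C13 and C23 its log2 fold change was 0.29 (adjusted p = 0.679 by the edgeR test).

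The 44 descendants of etoposide-treated founders were placed on the C13 pattern. Each plant was given a position on each of the 794 called genes, from 0 at the mean of C23 and C4 to 1 at the mean of C13, on the log2(CPM + 0.5) scale, and the median over genes was taken, with all 53 libraries scaled together. By construction C13 plants lay at 0.95 to 1, C23 plants at -0.17 to -0.13 and C4 plants at 0.037 to 0.36, with C4_8_4 the highest of these. Short-internode dwarf plants lay at 0.53 to 0.99, their relatives without the phenotype at 0.59 to 1.1, BR-like dwarf plants at 0.18 to 0.85, their relatives at 0.2 to 0.57, virescent plants at 0.36 to 0.69, their relatives at 0.21 to 0.4, green plants of the variegated line at -0.013 to 0.82, and its white plant at 0.47. The 3 C23 plants lay below all 44, and C4_8_6 and C4_8_7 near the low end. These positions are a description, since C13 chose the genes.

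**Figure D5:**
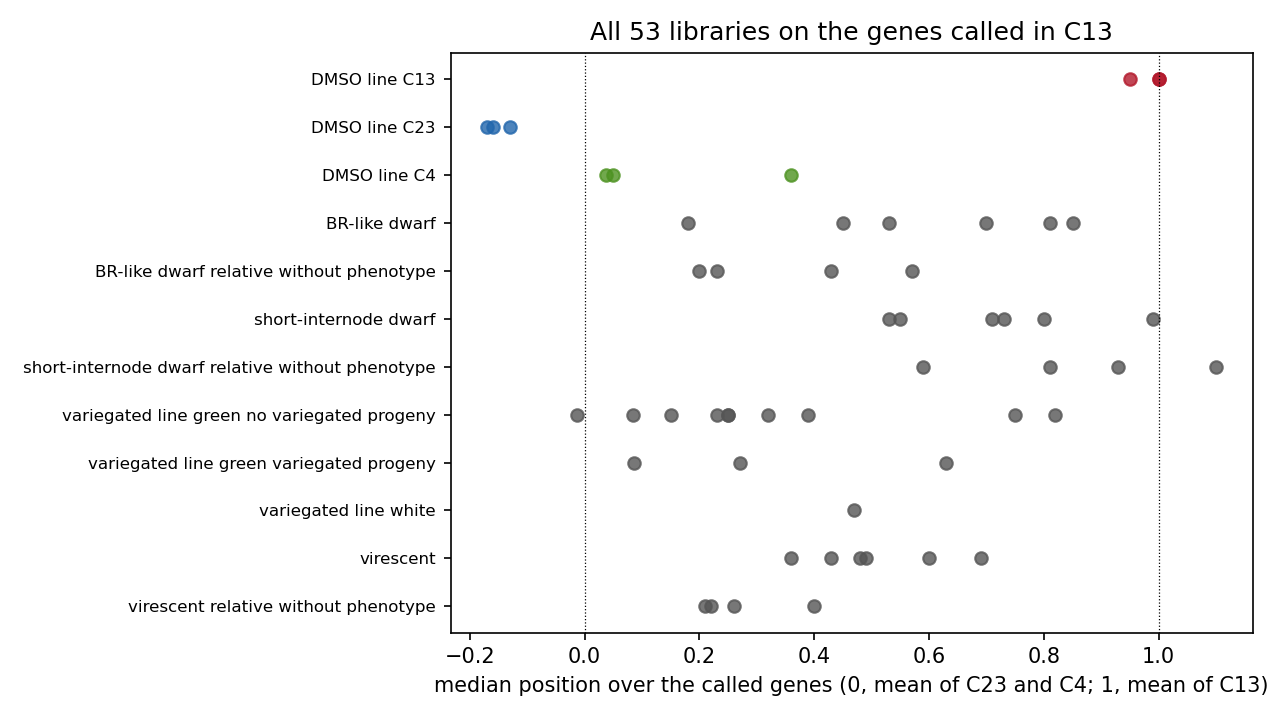
Median position of each of the 53 plants over the 794 genes called in C13, where 0 is the mean of C23 and C4 and 1 is the mean of C13, and each point is a plant. C13 lies at 0.95 to 1, C23 at -0.17 to -0.13 and C4 at 0.037 to 0.36, while the other groups cover -0.013 to 1.1.

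Single genes also varied in those plants. PAP17 had 2.77 to 292 CPM over the 44 plants with a median of 28.4, and 5 of them were below the lowest C13 plant. LSU1 had 0 to 32.2 CPM with a median of 4.12, and on that scale 6 plants were within the C13 range of 0.052 to 1.55 CPM and 1 was below it. All 44 were below the C23 plants, which had 32.5 to 65.6 CPM of LSU1, and 10 were within the range of C23 and C4. EXO had 0.55 to 958 CPM, with 7 plants above the highest C13 plant. NIA1 had 7.05 to 936 CPM with a median of 39.3, and 1 plant, the white one of the variegated line, was above the highest C13 plant while 0 of the 44 fell within the C13 range.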

How the data were processed

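Leaf poly(A) RNA of single plants was sequenced, and the authors trimmed reads with Trim Galore and obtained estimated counts per gene with Salmon against Araport11 transcripts, with Col-CEN v1.2 as decoy. The deposited estimated counts are not normalized, 9.27% of values are not whole, and they were rounded. Tool versions are not given in the sources used here, and 0 columns lacked a sample. The deposited tables of the authors' own comparisons of mutant phenotypes, which hold fold changes and p-values, were not used.

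The 9 DMSO plants were fitted by line in edgeR 4.0.16 (R 4.3.3) with TMM scaling and the quasi-likelihood test. Genes entered with 10 or more normalized counts in 3 or more plants, and the prior count was 0.125. The standard error restates the test, as the unshrunken log2 fold change divided by the root of F. CPM use TMM over the 9 libraries, or over all 53 where the series is described. DESeq2 1.42.0 served as an alternative, beside other filters and scalings and each plant left out. Where a line had no counts, the floor was 3 counts over the line, for counting error only. The fit was tested on simulated data. Of 27501 gene IDs, 27391 were found in TAIR10.1. Of 475 list entries, 9 whose symbol and ID did not pair were left out. The lines compared and the gene lists were chosen with earlier results of these data known.

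Named genes are the 12 largest rises and falls among called genes without overlap, called list members, up to 3 members per list with the largest change, the 10 highest and 10 lowest genes of C13_2, and the 3 largest called rises and falls between each pair of lines. VGD1 and VGDH1 were chosen after their values were seen. The values of 1 called list member are not reported here.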

Additional observations from a re-analysis of the deposited data

Results flagged for a closer look

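Among the 6 plants of C23 and C4, 26 values were examined for a plant far from the rest, and 4 stood out. By chance about 1 in 20 groups would show such a plant. C23_30 had 116654237 counts in total, and thinning it left 807 genes called instead of 794. C23_30 also had the highest PAP1 level at 18.5 CPM and the highest CBF1 level at 8.35 CPM, on the side away from C13. C4_8_4 had 3.42 CPM of AT3G12710, beside 0 to 0.706 CPM in the other 5 plants, and thus lay nearest to C13.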

How the results depend on the processing

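Scaling with DESeq2 size factors, the stricter or absent count filter, the robust fit and thinning of C23_30 kept the count of genes in C13 against C23 and C4 between 753 and 807. DESeq2's Wald test called more than edgeR, with 1583 genes (50.6% higher, against 39.9% with edgeR), 2180 for C13 against C23, 810 for C13 against C4 and 334 for C23 against C4. Some lists with 0 edgeR calls then had calls. Those higher were 3 hypoxia, 3 photosynthesis, 3 cell division and 5 vascular marker genes. The senescence list had 1 higher and 2 lower, the jasmonate list 1 lower, and the DNA damage and DNA methylation lists still 0. With C23 and C4 pooled as 1 group 469 genes were called, of which 24.3% were higher. At an adjusted p below 0.05 with any fold change 3660 were called. Leaving out 1 plant at a time gave 141 to 1178 genes for C13 against C23 and C4, 281 to 1284 for C13 against C23, 0 to 414 for C13 against C4 (0 without C13_5, 414 without C4_8_4) and 0 to 65 for C23 against C4 (0 without C23_34, 65 without C13_2). Leaving out both C13_2 and C4_8_7, chosen after seeing the data, gave 440, 15 and 36 genes for C13 against C23 and C4, C13 against C4, and C23 against C4. The organelle difference was -0.00944 to 0.098 percentage points with 1 plant left out, and negative without C13_5 (-0.00109) or C23_34 (-0.00944). Among genes not called in C13 against C23 and C4, LOX3 changed sign without C13_2 (-0.66, and -0.74 without C4_8_7 as well), as did AOC3 (-0.60 and -0.79) and, without both plants, FRK1 (-0.20). With 1 plant left out the log2 fold change ranged over -0.66 to 2.01 for LOX3, -0.60 to 2.64 for AOC3 and -0.24 to 0.40 for DREB26, which was negative without C13_15. With the pooled group DREB26 (-1.66), AT4G37240 (-0.41) and TCH4 (-0.70) were negative. The causes were not tested. No paired analysis was possible because the lines share no replicate number. With 3 plants of each line, genes of a few CPM give the least certain fold changes.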
